A study of Mus musculus with 27 samples.

Results

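Connexins and pannexins were followed through development of the mouse retina in 6 genes, Gjd2, Gjc1, Gja10, Gja1, Panx1 and Panx2, chosen by symbol from the 38168 listed features. Gja1 is listed under 2 entries, of which the higher one was taken. Whole retinas of wild type C57BL/6J mice, an inbred strain, were profiled by RNA-seq at embryonic days 14 and 17 (E14, E17) and postnatal days 1, 6, 15, 28 and 60 (P1 to P60). P60 was represented by 6 libraries, each of P1, P15 and P28 by 4, and the other ages by 3, with no treatment and no second genotype. Tissue was taken in the light phase of the day. By the study's methods a library was a pool of retinas from several animals, except that 4 of the 6 P60 libraries came from single mice, whereas the labels give 3 retinas for every library. Sexes were mixed up to P1 and males were used afterwards, so age and sex makeup cannot be told apart across that boundary. No source says whether pools of an age came from separate litters, and p-values measure the spread between libraries.

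Gap junctions are channels that join the cytoplasm of neighboring cells, and their subunits are the connexins, named by molecular mass. In the retina, connexin 36 (Cx36, from Gjd2) couples AII amacrine cells, cone bipolar cells and photoreceptors, Cx45 (Gjc1) pairs with it at some bipolar and amacrine cell contacts, and Cx57 (Gja10) couples horizontal cells. Cx43 (Gja1) is a connexin of glia and of vessel cells, and is found in progenitors as well. Pannexins resemble connexins in fold but form channels to the outside of the cell, through which ATP can leave. Panx1 is widely expressed and Panx2 is best known from the central nervous system.

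The read total behind the values, recovered from them, was 7077781 to 11332323 per library. The study's methods give more collected reads per library than this. At these totals 1 read was worth 0.0882 to 0.141 CPM, the unit of the values (reads of a gene scaled to that total). Libraries of an age correlated across genes with a lowest Pearson r of 0.977 to 0.991, except at P60, where the lowest r was 0.940. Genes are not replicates, and these r values only describe the libraries. All 5 photoreceptor markers, 6 bipolar, 5 amacrine, 4 horizontal cell and 5 Müller glia markers of fixed lists were measured, and the photoreceptor sum (Crx, Nrl, Rcvrn, Sag, Prph2) ran from 88.8 to 95.6 CPM at E14 and from 4961 to 5458 CPM at P60. Markers of neighboring tissues were low but not constant. The sum of 4 measured lens genes was 1.83 to 7.48 CPM over all libraries, and that of 6 pigment epithelium genes was 2.80 to 51.8 CPM. The latter averaged 6.11 CPM at E14 and 40.9 at P15, and its genes did not rise alike. The sum of 3 blood genes averaged 13.3 CPM at P1 and 40.0 at P6. The part of these tissues in the values was not tested.

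Between embryonic retina (E14 and E17, 6 libraries) and mature retina (P15, P28 and P60, 14 libraries), the 6 genes split evenly. Gjd2, Gja10 and Panx2 rose, and Gjc1, Panx1 and Gja1 fell. All 6 passed an adjusted p of 0.05 in limma on log2(CPM + 1), as did 75.4% of all 31760 features tested, of which 35.0% were higher and 40.4% lower. A count of 6 is therefore near the background, and the sizes and times of the changes carry the description. Mature and embryonic libraries did not overlap for 5 of the 6 genes, the exception being Gja1, against 40.4% of all features. Over the 7 ages the F test of limma called all 6 genes, with adjusted p from 1.5e-26 (Gjd2) to 2.3e-09 (Gja1), and 83.0% of all features. In whole tissue, fewer cells of a type and less RNA per cell cannot be told apart.

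**Figure D1:**
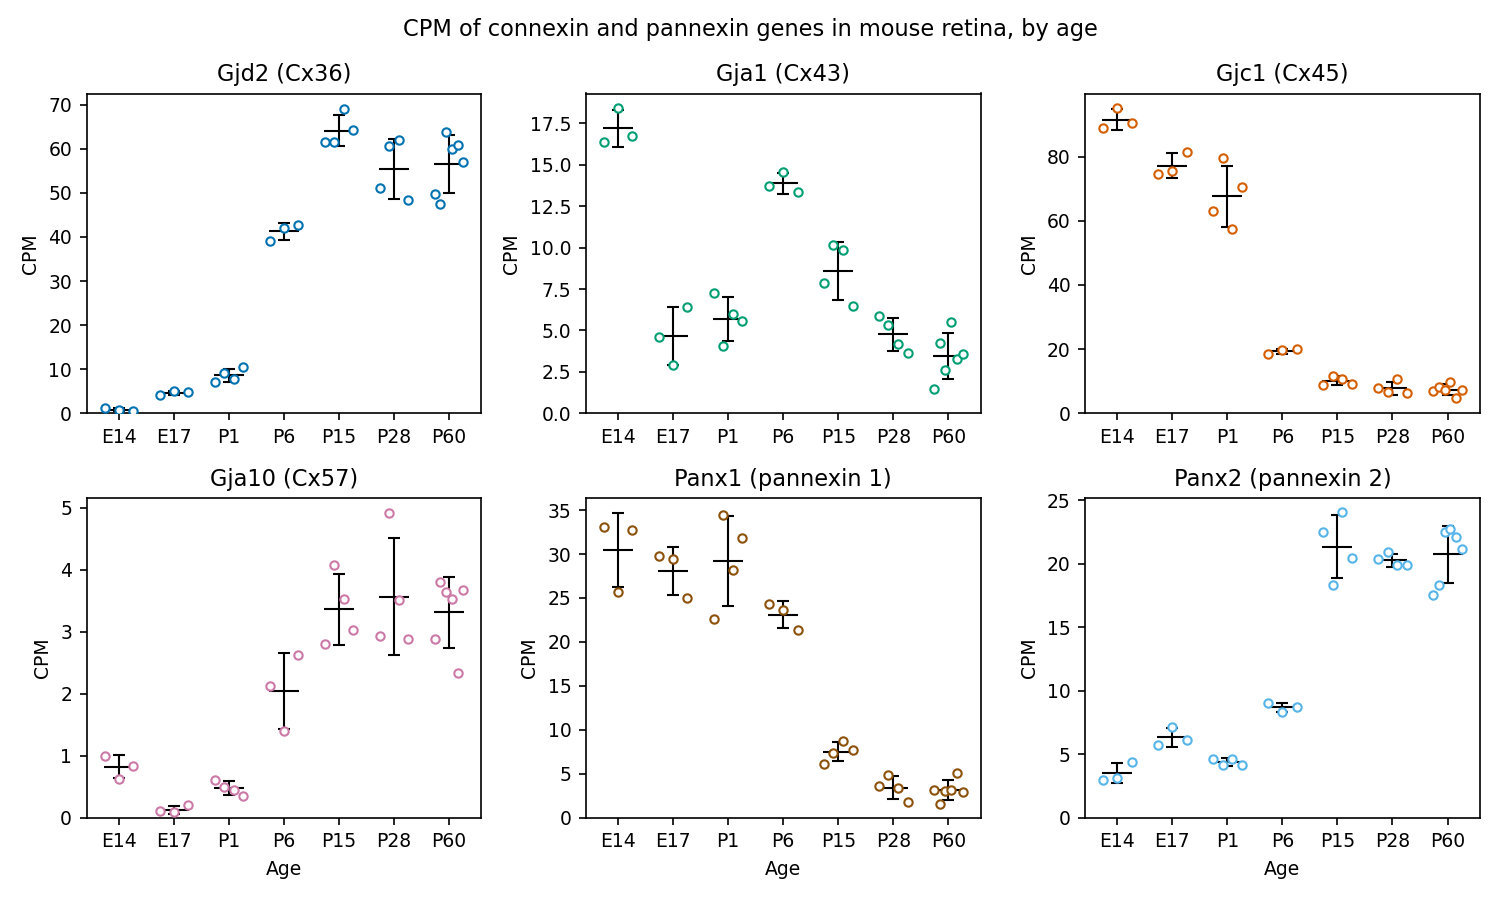
CPM (y axes, each from 0 and with its own scale) of the 6 genes at the 7 ages (x axes), with 1 open circle per library and black bars for the mean ± SD of 3 to 6 libraries. Gjd2 stayed at or below 10.5 CPM to P1 and was at 39.0 CPM or more from P6, Gjc1 and Panx1 fell from their embryonic levels, and Gja1 was high at E14 and again at P6.

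Gjd2 encodes Cx36, the main connexin of retinal neurons. It showed the largest rise of the 6 genes, from near the detection limit at E14 to a plateau from P15. Its gene lies on chromosome 2 of build GRCm38 on the minus strand (chr2:114009601-114013619), with 2 exons, and the messenger of 2879 bases has a coding part of 963 bases. The 250 bases before the RefSeq gene start (build GRCm38.p6, minus strand, chr2:114013620-114013869) are shown because they lie within the first exon of a neighboring noncoding gene on the other strand (chr2:114013563-114013897).
Gjd2 promoter: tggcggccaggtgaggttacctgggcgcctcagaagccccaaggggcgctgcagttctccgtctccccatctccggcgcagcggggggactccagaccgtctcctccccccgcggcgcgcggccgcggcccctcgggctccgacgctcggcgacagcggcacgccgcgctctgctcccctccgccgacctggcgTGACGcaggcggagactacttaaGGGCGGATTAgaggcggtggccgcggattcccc
Capitals mark TGACG (part of the cAMP response element, bases 56 to 52 before the start) and an overlapping pair. The pair is GGGCGG (a GC box, bases 33 to 28) and GGATTA (bases 29 to 24). GGATTA is the reverse complement of TAATCC, the core read by CRX and OTX factors. Searched on both strands, TGACG occurred in 17.8% of 32851 promoter windows of the same length, GGGCGG in 32.7% and TAATCC in 6.25%. The window is 74% G and C, where the median window has 52.4%. Such matches describe letters and do not show binding.

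At E14 the 3 libraries held 1.10, 0.844 and 0.421 CPM of Gjd2, which were 11, 8 and 4 reads, and at E17 4.19, 4.94 and 4.76 CPM. At P1 the 4 libraries were at 7.11, 9.08, 7.80 and 10.5 CPM. Each age lay wholly above the one before. At P6 Gjd2 reached 39.0, 42.1 and 42.7 CPM, and at P15 61.6, 61.5, 69.1 and 64.3 CPM. The P28 libraries were at 51.0, 60.7, 62.0 and 48.4 CPM, and the P60 libraries ran from 47.5 to 63.9 CPM with a median of 58.5. All 3 of the oldest ages overlapped one another and stood above P6. The mature mean was 58.4 ± 6.67 CPM (SD, n = 14) and the embryonic mean 2.71 ± 2.13 CPM (n = 6), a ratio of 21.5. On the log2(CPM + 1) scale the difference was 4.24 ± 0.09 (SE, adjusted p = 2.7e-28, limma). Between E14 and E17 Gjd2 rose by 1.67 (adjusted p = 2.6e-10), followed by 0.76 to P1 (adjusted p = 2e-04), by 2.15 to P6 (adjusted p = 2.4e-14) and by 0.62 to P15 (adjusted p = 0.00057). This scale understates a rise from so low a level. As ratios of mean CPM, E17 was 5.88 times E14 and P6 was 4.78 times P1. P28 differed from P15 by -0.21 (adjusted p = 0.50) and P60 from P28 by 0.02 (adjusted p = 0.91). In the order of mean levels, P15, P60 and P28 did not differ from their neighbors, whereas P28 exceeded P6 by 0.41 (adjusted p = 0.017) and each earlier step passed the test.

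The neighboring gene, A530058N18Rik, starts head to head with Gjd2 on the opposite strand, and 57 bases of their exons overlap. Its own entry rose with Gjd2. It was at 0.527 to 0.900 CPM at E14, 3.88 to 6.01 CPM at E17, 9.50 to 12.1 CPM at P1 and 79.9 to 93.2 CPM at P6. From P15 on it stood at 138 to 209 CPM, above Gjd2 in every library. Whether counting used the strand is not given in the sources used here, so reads from the overlapping bases cannot be assigned, and the part of this overlap in the Gjd2 values was not tested. The bipolar marker sum (6 of 6 genes measured) moved in the same direction. It was 22.2 to 25.1 CPM at E14, 560 to 777 CPM at P6 and 1540 to 1587 CPM at P15. From P6 to P15 Cabp5, Scgn, Prkca and Trpm1 rose. Over that step Grm6 did not pass (0.43, adjusted p = 0.068, limma), and Vsx1 fell by 0.86 (adjusted p = 0.00033). The amacrine sum (5 of 5 genes) was 126 to 145 CPM at E14, highest at P1 (733 to 894 CPM) and 476 to 505 CPM at P60. That maximum was carried by Tfap2a and Tfap2b, whereas Slc6a9, a glycine transporter, averaged 16.6 CPM at P1 and 160 at P60, Calb2 32.4 CPM at P1 and 93.7 at P15, and Dab1 was highest at P6 (79.1 CPM). The part of these cell types in the Gjd2 values was not tested.

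Gjc1 encodes Cx45, and it ran opposite to Gjd2. It had the highest CPM per kb of the measured connexins in the embryonic retina, and its level fell about 10-fold. Gjc1 is annotated on the minus strand of chromosome 11 (chr11:102799579-102819700), and its longest coding transcript has 3 exons and 2314 bases. At E14 it was measured at 88.9, 95.2 and 90.6 CPM, at E17 at 74.4, 75.5 and 81.6 CPM, and at P1 at 63.2, 79.4, 57.6 and 70.5 CPM. Every one of these 10 libraries exceeded all later ones. At P6 the level had dropped to 18.5, 19.7 and 20.0 CPM, and at P15 to 8.83, 11.7, 10.7 and 9.21 CPM. It was 7.86, 6.60, 10.6 and 6.16 CPM at P28 and 4.67 to 9.72 CPM (median 7.38) at P60. The 3 oldest ages overlapped. The mature mean was 8.27 ± 1.96 CPM (SD, n = 14) against 84.4 ± 8.49 CPM in the embryo (n = 6), an embryonic to mature ratio of 10.2 and a log2 difference of -3.20 ± 0.10 (SE, adjusted p = 4e-23).

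The largest step of Gjc1 was that from P1 to P6, a difference of -1.74 ± 0.16 (adjusted p = 1.5e-10), so that at P6 it stood at 21.2% of its E14 mean. It fell again by 0.88 to P15 (adjusted p = 6e-05). The steps to E17 (-0.24, adjusted p = 0.49) and P1 (-0.20, adjusted p = 0.59) did not pass, nor did those to P28 (-0.36, adjusted p = 0.25) and P60 (-0.07, adjusted p = 0.76). Fitted on the E14 and E17 libraries alone, the first of these was called (adjusted p = 0.0029). P60 was lower than P15 by a log2 difference of -0.43 ± 0.14 (adjusted p = 0.019). The sum of 4 progenitor markers (Hes1, Fgf15, Sfrp2, Ccnd1) fell over the same ages, from 2702 to 2857 CPM at E14, 1476 to 1735 CPM at P1, 75.6 to 101 CPM at P6 and 17.3 to 27.9 CPM at P60. Within it, Sfrp2 averaged 681 CPM at E14 and 28.3 at P1, whereas Ccnd1 stood at 1438 and 1490 CPM and was at 79.5 CPM at P6. Their part in the Gjc1 values was not tested.

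Set against each other per kb of the longest coding transcript, Gjd2 and Gjc1 changed places between P1 and P6. In CPM per kb, Gjc1 exceeded Gjd2 101 to 268 times in the E14 libraries, 19.0 to 22.1 times at E17 and 8.33 to 11.0 times at P1. At P6 Gjd2 exceeded Gjc1 1.69 to 1.72 times, and the ratio was 4.22 to 5.61 at P15, with 4.72 to 7.39 for the P28 libraries and 4.75 to 10.5 for those of P60. The 3 P6 libraries are of the same age, and their close ratios rest on 131 to 182 reads of Gjc1 per library. With lengths taken as the union of all exons, the ratio kept its side of 1 at every age, at 0.00807 to 0.0215 at E14 and 3.66 to 3.72 at P6. The ratio is formed within a library and does not depend on scaling between libraries.

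**Figure D2:**
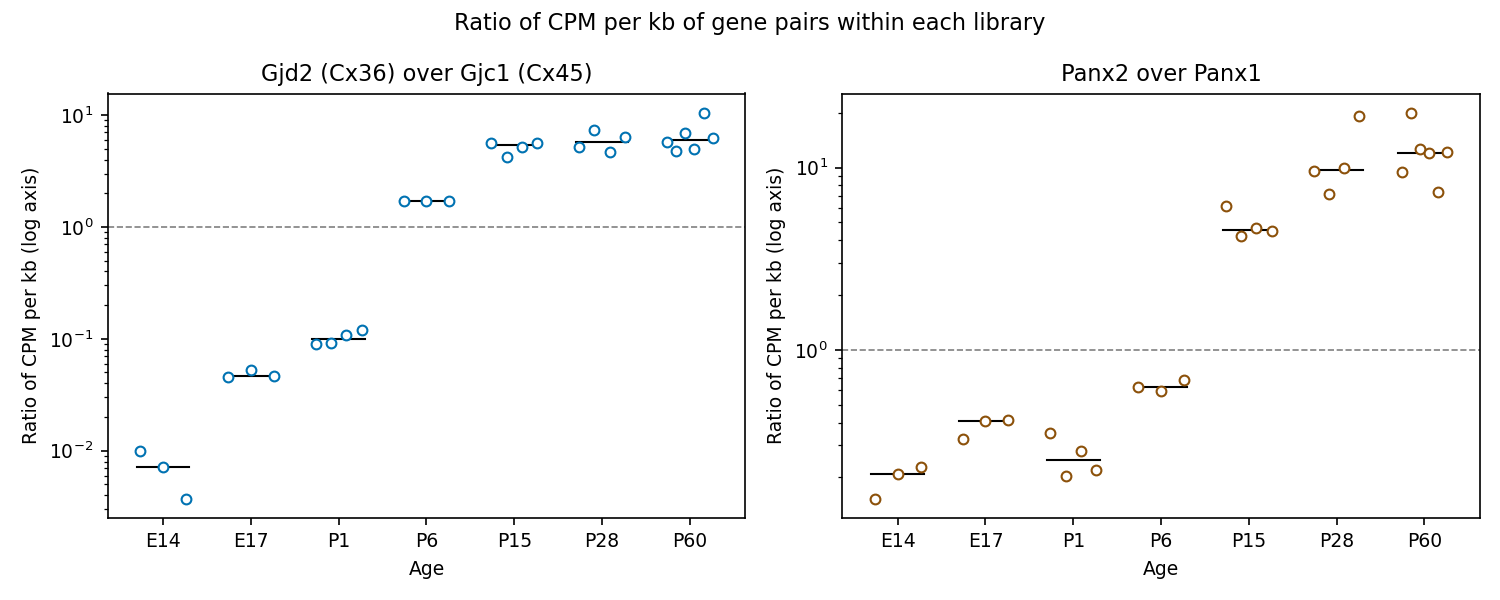
Ratio of CPM per kb of the longest coding transcript (log y axes) in each library (open circles) by age (x axes), with black bars for the median and a dashed line at a ratio of 1. Gjd2 over Gjc1 crossed 1 between P1 and P6, and Panx2 over Panx1 crossed it between P6 and P15.

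The mean share in the CPM per kb of 11 measured connexin genes gives the same exchange. Gjc1 held 82.1 ± 0.69% (SD, n = 3) at E14, 86.0% at E17, 78.2% at P1 and 25.2 ± 0.19% at P6, and then 13.1, 11.9 and 11.2% at P15, P28 and P60. Gjd2 held 0.569 ± 0.25% at E14, 4.15% at E17, 8.04% at P1 and 43.2 ± 0.17% at P6, and 66.9, 68.8 and 69.3% at the 3 oldest ages. With union exon lengths these became 80.1% for Gjc1 at E14 and 56.4% for Gjd2 at P6. Gja10 never held more than 7.62% in a library.

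**Figure D3:**
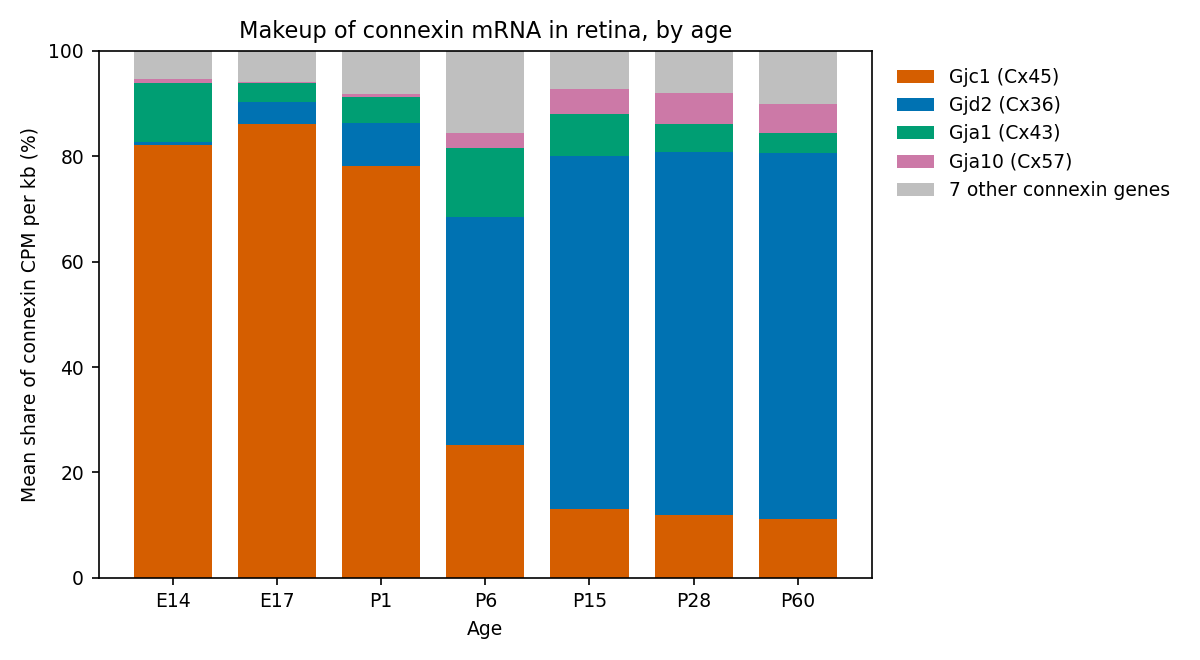
Mean share (y axis, percent) of each gene in the CPM per kb of 11 connexin genes at each age (x axis), stacked for Gjc1, Gjd2, Gja1, Gja10 and the 7 other genes together. Gjc1 held 78.2% or more to P1, and Gjd2 held 66.9% or more from P15.

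Gja10 encodes Cx57, a connexin of horizontal cells. It was low throughout and rose after birth. The gene lies on the minus strand of chromosome 4 (chr4:32596960-32602760), and its main transcript is a single exon of 2117 bases. At E14 it held 1.0, 0.633 and 0.842 CPM, from 10, 6 and 8 reads. At E17 it was at 0.102, 0.0882 and 0.207 CPM, from 1, 1 and 2 reads, all under the 3 reads that a count of 0 allows. At P1 it was at 0.613, 0.504, 0.452 and 0.355 CPM, from 3 to 5 reads. These embryonic and newborn values rest on few reads. At P6 the libraries reached 2.12, 1.41 and 2.62 CPM, at P15 2.81, 4.08, 3.53 and 3.02 CPM, and at P28 2.93, 4.91, 3.52 and 2.89 CPM. At P60 they ran from 2.34 to 3.80 CPM, with a median of 3.59. The 3 oldest ages overlapped one another and lay above every embryonic library.

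The mature mean of Gja10 was 3.40 ± 0.65 CPM (SD, n = 14) against 0.479 ± 0.40 CPM (n = 6), a log2 difference of 1.61 ± 0.12 on the log2(CPM + 1) scale (adjusted p = 2.1e-13), which understates the change of so low a gene. From the summed reads, the level at P6 was 4.16 times that at P1 (47 and 16 reads, 95% exact interval 2.32 to 7.86 for counting error), and limma gave a rise of 1.02 (adjusted p = 4.8e-05). The fall from E14 to E17 rests on 24 and 4 reads, a ratio of 6.37 (interval 2.19 to 25.3), with a log2 difference of -0.69 (adjusted p = 0.023). Without E14 replicate 1 or 3 or without E17 replicate 1 or 2 it did not pass (adjusted p = 0.070 to 0.106). From E17 to P1 the summed reads differed 3.69 times (interval 1.19 to 15.2), and the step of 0.39 did not pass (adjusted p = 0.25), although with a pseudocount of 0.1 it did (1.34, adjusted p = 0.0046). The rise to P15 was 0.53 (adjusted p = 0.031). With a pseudocount of 0.1, or without P6 replicate 1 or 2 or P15 replicate 2 or 3, it was not called (adjusted p = 0.056 to 0.209). P28 and P60 differed from the age before by 0.05 (adjusted p = 0.95) and -0.07 (adjusted p = 0.80).

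Horizontal cell markers did not move together beside Gja10. Of the 4 in the list, Onecut1 and Onecut2, which specify the early cells, were lower in mature retina (log2 differences of -3.10 and -3.48), and Calb1, a calcium binding protein also made by other neurons, was higher by 4.16. Lhx1 differed by 0.08 (adjusted p = 0.74). The sum of the list was 770 to 788 CPM at E14, 370 to 403 CPM at E17, 225 to 234 CPM at P1 and 66.0 to 83.5 CPM at P60. Their part in the Gja10 values was not tested.

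Gja1 encodes Cx43, a connexin of glia and vessel cells. It was the only one of the 6 genes with separate high levels at E14 and P6 and low levels between and after. It lies on the plus strand of chromosome 10 (chr10:56377330-56402513), and the longest of its coding transcripts has 2 exons and 3182 bases. The 250 bases before the RefSeq gene start (build GRCm38.p6, plus strand, chr10:56377050-56377299) are shown for comparison with those of Gjd2, since the genes followed different time courses.
Gja1 promoter: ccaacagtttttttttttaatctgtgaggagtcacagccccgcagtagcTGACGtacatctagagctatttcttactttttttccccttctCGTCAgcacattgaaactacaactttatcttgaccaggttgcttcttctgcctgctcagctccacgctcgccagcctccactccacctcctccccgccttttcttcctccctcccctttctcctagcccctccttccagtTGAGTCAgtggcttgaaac
Capitals mark TGACG (bases 201 to 197 before the start), its reverse complement CGTCA (bases 159 to 155) and TGAGTCA (the AP-1 motif, bases 19 to 13). TGAGTCA occurred on either strand in 4.46% of the windows. This window is 50% G and C and held neither the GC box nor the CRX core on either strand.

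At E14 Gja1 stood at 16.4, 18.5 and 16.7 CPM. It was 4.60, 2.91 and 6.42 CPM at E17 and 7.24, 4.03, 5.99 and 5.56 CPM at P1. The E14 libraries lay far above both. At P6 it was back at 13.7, 14.6 and 13.4 CPM. It then stood at 7.90, 10.1, 9.86 and 6.46 CPM at P15, 5.86, 5.34, 4.19 and 3.65 CPM at P28, and 1.44 to 5.52 CPM (median 3.42) at P60. E14 and P6 did not overlap with any other age. On the log2 scale Gja1 fell by 1.74 from E14 to E17 (SE 0.26, adjusted p = 9.4e-06), did not pass from there to P1 (0.28, adjusted p = 0.63) and rose by 1.17 to P6 (SE 0.24, adjusted p = 0.00023). P6 and E14 differed by 0.29 (adjusted p = 0.37), which did not pass.

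After P6 Gja1 declined in smaller steps. The step to P15 was -0.65 ± 0.24 (adjusted p = 0.038). It did not pass with a pseudocount of 0.1, the replicate block, edgeR or median-of-ratios scaling (adjusted p = 0.053 to 0.077), nor without any 1 of the 3 P6 libraries or P15 replicate 1 or 4 (adjusted p = 0.076 to 0.117). P28 was at -0.73 ± 0.23 from P15 (adjusted p = 0.080), which passed in a fit of these ages alone (adjusted p = 0.014) and without P60 replicate 1 (adjusted p = 0.032). The last step, P60 against P28, was -0.42 ± 0.21 (adjusted p = 0.17). P60 was lower than P15 by -1.15 ± 0.21 (adjusted p = 0.00016) and lower than P6 by -1.81 ± 0.23 (adjusted p = 7.6e-08).

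The mature mean of Gja1, 5.29 ± 2.58 CPM (SD, n = 14), was below the embryonic one, 10.9 ± 7.0 CPM (n = 6), by -0.70 ± 0.16 on the log2 scale (adjusted p = 0.00018). The libraries of the 2 groups overlapped, with E17 in the range of P15 to P60. Against E14, P15 was lower by -0.94 (adjusted p = 0.0012), but against E17 it was higher by 0.79 (adjusted p = 0.0059). P60 was lower than E14 by -2.10 (adjusted p = 1.1e-09) and its difference from E17 did not pass (-0.36, adjusted p = 0.16). P28 was lower than E14 (-1.68, adjusted p = 4.6e-07) and differed from E17 by 0.06 (adjusted p = 0.85). All 3 mature ages were thus lower than E14, and 1 of them, P15, was higher than E17.

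Markers of the cells known to carry Cx43 did not move as groups, and their sums were often set by 1 or 2 genes. Of the astrocyte markers (4 of 4 measured), which summed to 6.80 to 9.05 CPM at E14 and 48.6 to 57.8 CPM at P6, Pdgfra, also made by other glia, gave most of the P6 sum and rose from 2.38 CPM on average at E14 to 41.9 at P6. Pax2 was highest at E14 (4.74 CPM, 1.52 at P6), Gfap at P28 (8.80 CPM) and S100b at P15 (4.65 CPM). The endothelial sum (5 of 5), 162 to 176 CPM at E14, 418 to 489 CPM at P1 and 257 to 268 CPM at P6, was nearly all Kdr, a growth factor receptor, which averaged 457 CPM at P1 and 238 at P6. The other 4 endothelial genes had higher means at P6 than at P1, with Pecam1 at 1.55 and 7.98 CPM, Cdh5 at 0.659 and 6.40 CPM, Tie1 at 0.152 and 2.17 CPM (all called by limma) and Cldn5 at 4.30 and 5.75 CPM (adjusted p = 0.38). Mural cell markers (5 of 5) were at 5.80 to 8.20 CPM at E14, 58.5 to 83.6 CPM at P6 and 98.2 to 113 CPM at P15, of which Rgs5 gave 60.8 CPM at P6 and 87.4 at P15. The Müller glia sum (5 of 5) was 828 to 846 CPM at E14, 590 to 621 CPM at P6 and 1230 to 1478 CPM at P60. From P1 to P6 Dkk3 fell from 503 to 179 CPM and Glul from 152 to 76.1 CPM, whereas Rlbp1 rose from 20.6 to 92.9 CPM and Apoe from 29.3 to 64.5 CPM, and Slc1a3 averaged 195 and 196 CPM. The progenitor sum (4 of 4) was highest at E14, the age of the first Gja1 maximum, at 2702 to 2857 CPM, and was 75.6 to 101 CPM at P6. Pigment epithelium markers summed to 4.11 to 7.80 CPM at E14 and 33.3 to 51.8 CPM at P15. Between embryonic and mature retina Ttr rose by 3.59, Rpe65 by 2.52 and Tyr by 0.43 (adjusted p = 0.019 for Tyr, limma). Best1 (0.16), Tyrp1 (0.25) and Pmel (-0.28) did not pass (adjusted p = 0.17 to 0.30). The part of these cells in the Gja1 values was not tested.

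Panx1 encodes pannexin 1, a channel for ATP release. It held its embryonic level for longer than Gjc1 and then fell between P6 and P28. Panx1 is annotated on the minus strand of chromosome 9 (chr9:15002128-15045478), with 5 exons and 5732 bases in the longest coding transcript, and no other gene overlaps it. Its 250 bases before the RefSeq gene start (build GRCm38.p6, minus strand, chr9:15045479-15045728) are shown beside those of the connexins because it fell at a later age than Gjc1, for which RefSeq gave no window here.
Panx1 promoter: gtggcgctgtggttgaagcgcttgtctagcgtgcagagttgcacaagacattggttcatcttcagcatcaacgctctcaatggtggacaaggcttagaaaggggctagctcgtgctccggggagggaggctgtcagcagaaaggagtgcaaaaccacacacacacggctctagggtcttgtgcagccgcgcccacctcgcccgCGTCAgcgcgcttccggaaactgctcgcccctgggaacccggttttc
Capitals mark CGTCA, the reverse complement of TGACG, at bases 47 to 43 before the start. The window is 59.6% G and C and held no GC box, CRX core or AP-1 motif on either strand.

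At E14 Panx1 stood at 33.1, 25.6 and 32.7 CPM, at E17 at 29.8, 29.5 and 25.0 CPM, and at P1 at 22.6, 34.4, 28.2 and 31.8 CPM. At P6 it was at 24.3, 23.7 and 21.4 CPM. The P1 libraries overlapped those of E14, E17 and P6, whereas P6 lay below E14 and E17. No step between these 4 ages passed the test, with differences of -0.11 (adjusted p = 0.88) to E17, 0.05 (adjusted p = 0.95) to P1 and -0.31 (adjusted p = 0.28) to P6, the last called in a fit of P1 and P6 alone (adjusted p = 0.035). By P15 the level was 6.16, 7.37, 8.76 and 7.70 CPM, a difference of -1.51 ± 0.22 from P6 (adjusted p = 1.6e-06). At P28 it was 3.60, 4.91, 3.38 and 1.76 CPM, a further -0.99 ± 0.20 (adjusted p = 0.0033). The P60 libraries ran from 1.55 to 5.08 CPM with a median of 3.08 (-0.08 from P28, adjusted p = 0.81). No library from P15 on reached the lowest of the earlier ones. The embryonic mean of 29.3 ± 3.43 CPM (SD, n = 6) was 6.55 times the mature mean of 4.47 ± 2.26 CPM (n = 14), a log2 difference of -2.52 ± 0.14 (adjusted p = 7.4e-17).

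Panx2, the gene of pannexin 2, rose in 3 steps to a plateau at P15. It lies on the plus strand of chromosome 15 (chr15:89059734-89073567), with 3 exons and 3391 bases in its longest coding transcript. The antisense gene 1810021B22Rik overlaps its span without sharing exon bases and averaged 0.139 to 0.939 CPM per age. Panx2 was at 3.00, 3.16 and 4.42 CPM at E14, 5.73, 7.15 and 6.11 CPM at E17, and 4.66, 4.16, 4.64 and 4.14 CPM at P1. The E17 libraries stood above those of both neighboring ages. At P6 it was at 9.04, 8.33 and 8.69 CPM and at P15 at 22.5, 18.3, 24.1 and 20.5 CPM. It was at 20.4, 20.9, 19.9 and 19.9 CPM at P28 and 17.6 to 22.8 CPM (median 21.7) at P60. Each of the 14 mature libraries exceeded each earlier one.

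On the log2 scale the 3 rises of Panx2 were 0.70 between E14 and E17 (adjusted p = 0.00083), 0.84 between P1 and P6 (adjusted p = 6.6e-06) and 1.20 between P6 and P15 (adjusted p = 2.3e-08). Between E17 and P1 it was lower by -0.44 ± 0.14 (adjusted p = 0.037). That step did not pass in a fit of these ages alone (adjusted p = 0.064), nor without any 1 of the 3 E17 libraries or P1 replicate 2, 3 or 4 (adjusted p = 0.051 to 0.213). P28 and P60 differed from the age before by -0.06 (adjusted p = 0.90) and 0.03 (adjusted p = 0.91). The mature mean was 20.8 ± 1.90 CPM (SD, n = 14) and the embryonic mean 4.93 ± 1.68 CPM (n = 6), a ratio of 4.22 and a log2 difference of 1.92 ± 0.09 (adjusted p = 4.1e-19).

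Per kb of the longest coding transcript, Panx2 was below Panx1 in every library to P6 and above it in every library from P15. The ratio of Panx2 to Panx1 in CPM per kb was 0.153 to 0.228 at E14, 0.325 to 0.414 at E17, 0.204 to 0.349 at P1 and 0.594 to 0.687 at P6. It was 4.20 to 6.17 at P15, with 7.20 to 19.1 for the P28 libraries and 7.36 to 20.0 for those of P60. The exchange of the pannexins thus came later than that of Gjc1 and Gjd2, which had passed a ratio of 1 at P6 in all 3 libraries. Union exon lengths gave 0.589 to 0.681 at P6 and 4.16 to 6.12 at P15.

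By age, the number of the 6 genes that passed the test was highest in the 2 intervals of the first 15 days after birth. From E14 to E17, Gjd2 and Panx2 rose and Gja1 and Gja10 fell, 4 of 6 genes where 10.6% of all features were called. From E17 to P1 Gjd2 rose and Panx2 fell, 2 of 6 genes (9.21% of all features). From P1 to P6 Gjd2, Gja1, Gja10 and Panx2 rose and Gjc1 fell, 5 of 6 genes (38.3%), and from P6 to P15 all 6 were called, Gjd2, Gja10 and Panx2 as higher and Gja1, Gjc1 and Panx1 as lower (33.4%). From P15 to P28 Panx1 alone was called (2.72%), with 3 of 6 genes at an unadjusted p under 0.05. From P28 to P60 limma called 0 of 6 (12.9% of all features), with 0 at an unadjusted p under 0.05 and 0 in edgeR. With 6 genes these shares are descriptions.

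**Figure D4:**
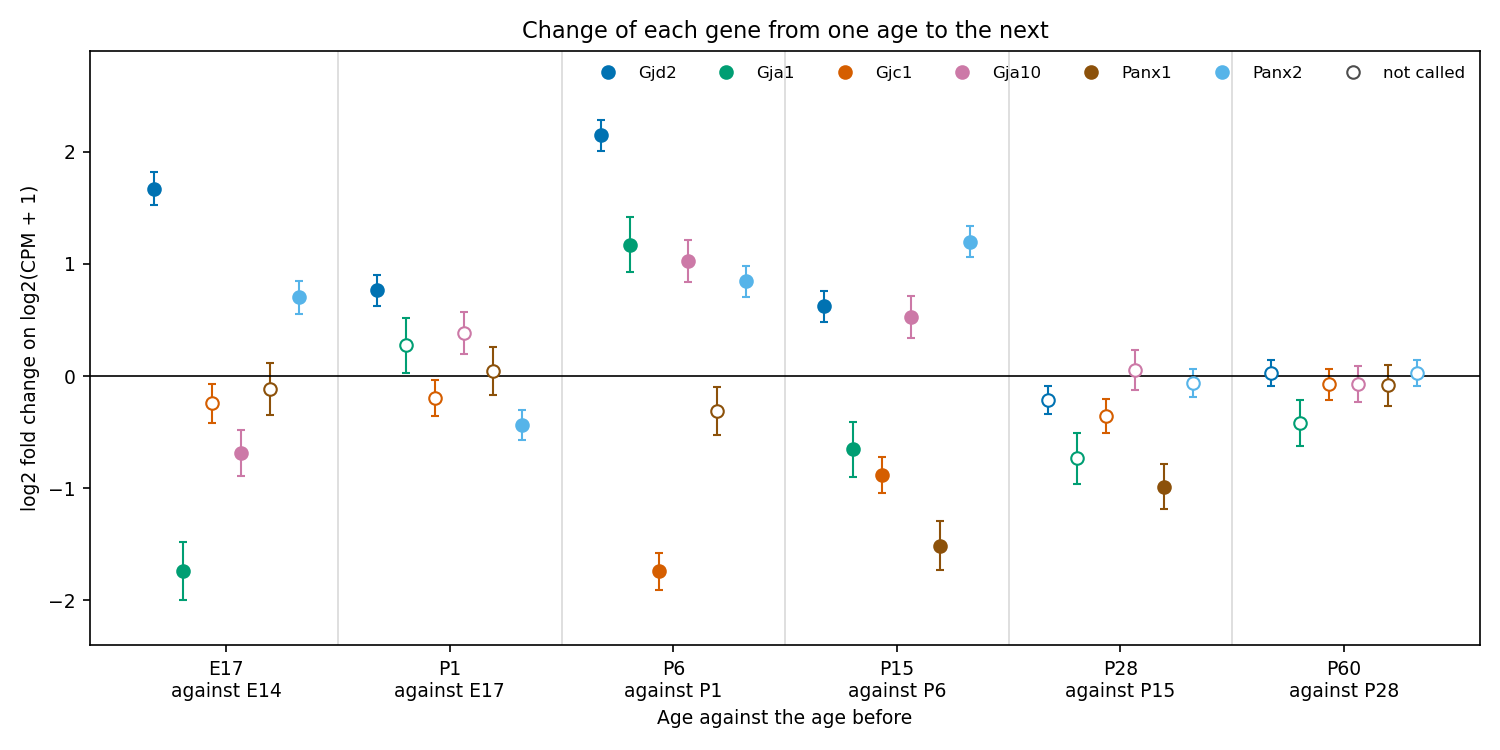
Log2 fold change on the log2(CPM + 1) scale ± SE (y axis) of each gene from one age to the next (x axis, 6 intervals), filled where the limma adjusted p was under 0.05 and open where not. Gjd2 and Gjc1 moved furthest apart from P1 to P6 (2.15 and -1.74), Panx1 and Panx2 from P6 to P15 (-1.51 and 1.20), and no gene was called from P28 to P60.

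Of 15 other connexin and pannexin genes in a list, 7 were measured and 3 passed the filter of 1 CPM in 3 libraries. Mature against embryonic retina, 1 was lower and 2 were not called, where 75.4% of all features were called and 40.4% were lower, with a median log2 difference of -0.17 against -0.06 over all features. Gja5, the gene of Cx40 of arterial vessels, fell from 3.89 ± 0.57 CPM at E14 (SD, n = 3) to 1.95 ± 1.0 CPM at P60 (n = 6), with a mature against embryonic log2 difference of -0.92 (adjusted p = 2.2e-05). Gje1 differed by -0.17 (adjusted p = 0.41) yet reached 3.58 to 4.54 CPM at P6, where it rose from P1 by 1.15 (adjusted p = 0.0018) and fell to P15 by 1.84 (adjusted p = 7.5e-06). Gja6 differed by 0.30 (adjusted p = 0.14).

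Proteins that anchor or regulate gap junctions were taken from a list of 19 genes, of which 18 passed the filter. In mature retina 13 were higher, 3 lower and 2 not called, where 35.0% of all features were higher and 40.4% lower, with a median log2 difference of 2.09 where that of all features was -0.06. Cx36 is bound by zonula occludens scaffolds and phosphorylated by CaM kinase II and protein kinase A. Of the scaffolds, Tjp3 fell by 0.49 (adjusted p = 0.0069), and Tjp1 differed by -0.09 (adjusted p = 0.053) and by 0.02 in edgeR (adjusted p = 0.78). The CaM kinase II genes Camk2a (3.05), Camk2b (2.87), Camk2d (2.17) and Camk2g (0.90) all rose. Of the catalytic subunits of protein kinase A, Prkacb rose by 0.44 and Prkaca fell by 0.17 (adjusted p = 0.039), a call lost with median-of-ratios scaling (adjusted p = 0.27) and in edgeR (adjusted p = 0.42). The phosphatase gene Ppp2ca, whose product removes phosphate from Cx36, fell by 0.44 (adjusted p = 6.4e-10).

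Dopamine and adenosine set the coupling of photoreceptors and AII amacrine cells through their receptors, and 2 receptor genes, Drd4 and Adora1, showed the largest rises of the list. Drd4, the D4 dopamine receptor of photoreceptors, was at 1.34 ± 0.77 CPM at P6 (SD, n = 3) and 95.6 ± 7.01 CPM at P15 (n = 4), and rose by 5.74 from embryonic to mature retina (adjusted p = 2.8e-27). Its step from P6 to P15 was 5.42 (adjusted p = 1.6e-19). Gjd2 had by P6 reached 64.4% of its P15 mean. Adora1, the A1 adenosine receptor, rose by 4.36, from 0.418 ± 0.19 CPM at E14 to 38.3 ± 4.22 CPM at P15. Adora2a, the other adenosine receptor gene of the list, did not pass the filter, with 0 to 10 reads per library. Drd2 rose by 3.07 and Drd1 by 2.36. Drd1, the dopamine receptor that lowers AII coupling, was already at 25.3 ± 2.58 CPM at P6. In the nitric oxide pathway, Nos1 (2.46) and the guanylate cyclase subunits Gucy1a1 (3.17) and Gucy1b1 (2.0) rose. P2rx7, a purinergic partner of pannexin 1, rose by 0.36 (adjusted p = 0.048), from 1 to 3 reads in each E14 library. The E17 libraries held 2 to 9 reads of P2rx7 and the P60 libraries 1 to 14, and no step between neighboring ages passed. Th, the enzyme of dopamine synthesis, differed by 0.30 (adjusted p = 0.11), and was called in edgeR (1.08, adjusted p = 0.036).

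**Figure D5:**
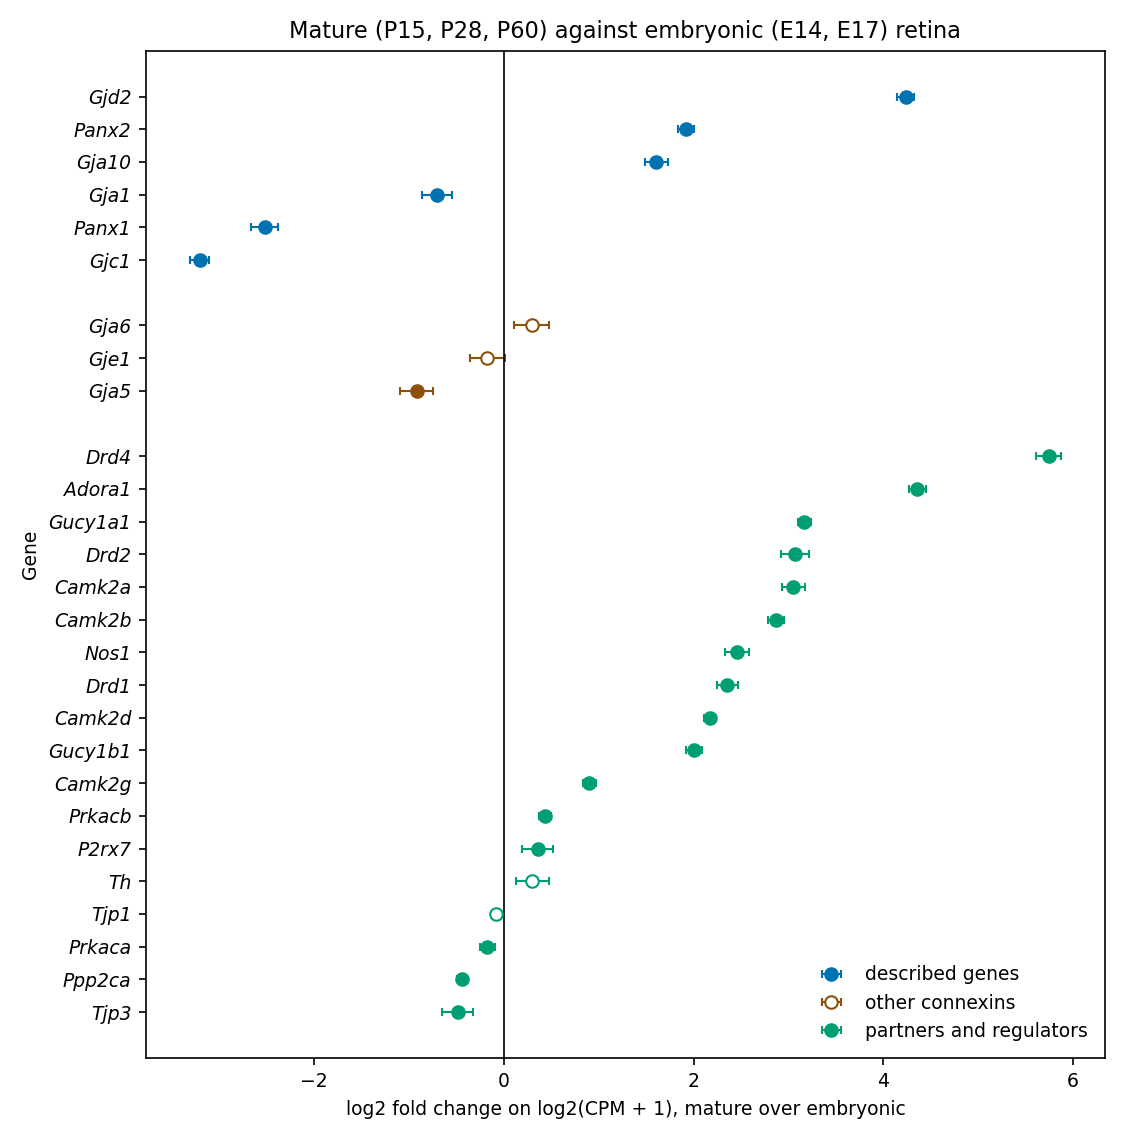
Log2 fold change on the log2(CPM + 1) scale ± SE (x axis), mature (P15, P28 and P60, 14 libraries) over embryonic (E14 and E17, 6 libraries), for the 6 genes described, 3 other connexins and 18 partners and regulators (y axis), filled where the limma adjusted p was under 0.05. The 6 genes spread from -3.20 (Gjc1) to 4.24 (Gjd2), and the partners reached 5.74 (Drd4).

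The features whose time course was most like that of each gene were ranked by the root mean square difference of centered age means on the log2(CPM + 1) scale, over 7 ages and 19025 candidates. For Gjd2 these were Pcp4 (0.139), Igsf5 (0.152) and Plekhb1 (0.180), and for Gjc1 they were Dusp18 (0.0821), Mis18a (0.107) and Pard3b (0.112). Dusp7 (0.0955), Tmem196 (0.141) and Stum (0.152) came nearest to Gja10, and Klhdc1 (0.105), 6330444A18Rik (0.125) and Disp2 (0.131) to Panx2. This scale understates the change of a gene as low as Gja10, whereas Dusp7 averaged 23.1 CPM. For Panx1 the nearest were D430019H16Rik (0.191) and Ncan (0.218). Gja1 had the most distant neighbors, Fgfr3 (0.317), Gpr39 (0.338) and Lypd1 (0.345). The difference is taken over all 7 ages together and can also grow with the spread of the values. It does not measure how closely the maxima at E14 and P6 were followed.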

How the data were processed

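Whole retina RNA was measured in 27 libraries. By the study's methods, the authors prepared total RNA with a SMARTer kit, sequenced single ends on a HiSeq instrument and used STAR for alignment to GRCm38. The deposited values are CPM, reads of a feature scaled to a read total of its library, for 38168 features. That total, as recovered, was below the number of reads that the study's methods give as collected. The annotation used for counting, and whether it used strand, are not given in the sources used here. Divided by the value of 1 read, 100% of values lay within 0.05 of a whole number, so reads were recovered. Counting intervals and the limit of 3 reads for a count of 0 cover counting error only.

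CPM was transformed to log2(CPM + 1), which understates changes of low genes. The 31760 features that reached 1 CPM in 3 or more libraries were fitted with limma 3.58.1 in R 4.3.3 (mean-variance trend, all 27 libraries, one factor for age). Two-sided p-values were adjusted by Benjamini-Hochberg over the 31760 features, and a call needed an adjusted p under 0.05. Ages follow the labels. Python 3.11.15 with pandas 2.3.3, scipy 1.17.1 and matplotlib 3.10.9 gave the other values. On simulated reads the fits recovered most planted changes of a single size between mature and embryonic retina. Smaller changes and steps between neighboring ages were not simulated.

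The members, the gene lists, the tests and the rule for named genes (the 6 genes, list genes past the filter, markers, and 3 nearest time courses for each gene) were chosen with earlier results of these data known. Some listed genes are not reported here and were left out of the lists, sums and shares, as was 1 time course near that of Panx1. Gucy1a1 and Gucy1b1 are listed under older symbols and were matched by Gene ID. A530058N18Rik and 1810021B22Rik were named after annotation showed that they overlap. Exons, spans and lengths came from GENCODE M21, and promoter windows from RefSeq, which matched 4 of the 6 genes. Alternatives were a pseudocount of 0.1, no filter, a minimum mean of 10 CPM, a replicate block, median-of-ratios scaling, edgeR 4.0.16 with TMM on recovered reads, compared ages only, a minimum absolute log2 fold change of 1, summed entries of a symbol, and each library left out. EdgeR without E14 replicate 1, whose read step is close to a round decimal, was added after the data were seen.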

Additional observations from a re-analysis of the deposited data

Results flagged for a closer look

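A second entry listed under the symbol Gja1 was not used in the comparisons and held reads. Its highest library, E14 replicate 2, was at 0.633 CPM from 6 reads, above the 3 reads that a count of 0 allows. Its 27 libraries ran from 0 to 6 reads, and no control level exists for it.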

How the results depend on the processing

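Mature against embryonic retina, all 6 genes kept their direction, and leaving out any library kept 6 calls. A mean CPM of at least 10 removed Gja1 and Gja10 and left 4 of 6 called there, 2 from E14 to E17 and 3 from P1 to P6. Compared ages only gave 1 call from E17 to P1 and 2 from P15 to P28. A minimum absolute log2 fold change of 1 lost Gja1 (5 calls, mature against embryonic) and gave 2, 0, 2 and 0 calls from E14 to E17, E17 to P1, P6 to P15 and P15 to P28, 10 of the partners and regulators (16 without it) and 0 of the other connexins (1 without it). For the other connexins, no filter gave 3 calls, the replicate block 2, and a mean CPM of at least 10 gave 0, since it tested none of them.

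Leaving out each library in turn gave 4 to 6 calls from P6 to P15, 3 to 4 from E14 to E17, 1 to 2 from E17 to P1 and 1 to 2 from P15 to P28. Among the partners and regulators it gave 14 to 17 calls, mature against embryonic. In uncalled steps it changed signs, with ranges of -0.0363 to 0.16 for Panx1 from E17 to P1, -0.0789 to 0.13 for Gja10 from P15 to P28, and for P60 against P28 -0.14 to 0.0596 for Gja10, -0.16 to 0.0662 for Gjc1, -0.0375 to 0.0792 for Gjd2, -0.29 to 0.0777 for Panx1 and -0.0019 to 0.0691 for Panx2. The cause was not tested.

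Same-numbered libraries of different ages did not deviate together (69 pairs, r from -0.13 to 0.17, median -0.0018). The 240 other pairs had r from -0.29 to 0.25, with a median of 0.0042. No pairing by number was seen. The replicate block lost the Gja1 call from P6 to P15 (adjusted p = 0.063, limma) and turned the signs of uncalled steps from P28 to P60, to -0.0095 for Gjd2, 0.0537 for Gjc1 and -0.0080 for Panx2, with no other call of the 6 genes changed. From P28 to P60 the share of called features that were higher was 37.2%, 51.6% with median-of-ratios scaling and 60.7% with edgeR. Mature against embryonic, the median of all features was -0.0647 with CPM and 0.0379 with edgeR. Depth limits Gja10 before P6, at 1 to 10 reads per library.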
